A study of Mus musculus with 12 samples.

Results

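The FGF-ERK genes described here are 10 genes of the fibroblast growth factor pathway and its feedback loop, taken by name from the deposited gene tables. They are the ligand Fgf4, the receptor Fgfr1, the ETS transcription factors Etv1, Etv4 and Etv5, and the feedback inhibitors Spry2, Spry4, Spred1, Dusp4 and Dusp6. All 10 names were found among the 41079 gene IDs. Of the 10, 9 passed a filter that kept the 14107 genes with a mean of at least 1 TPM (a transcript level scaled to gene length and to a fixed total per library), and Dusp4 did not.

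The series holds 12 RNA-seq libraries of mouse embryonic stem cells, 3 for each of 4 groups. The groups were wild-type cells and Bod1L KO cells, each without or with etoposide, called unexposed and exposed below (untreated and etoposide in the figures). Etoposide traps topoisomerase II on cut DNA, and Bod1l encodes a protein that works with the SETD1A histone methyltransferase and protects replication forks. The labels call the replicates biological without saying that they came from separate cultures, so the p-values rest on a spread that may be technical. The sample titles name tamoxifen for both knockout groups and for neither wild-type group, so the knockout and tamoxifen cannot be told apart in any comparison of genotypes. The strain, the number of clones, the culture medium and the dose and time of etoposide are not given in the sources used here.

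In embryonic stem cells, FGF4 is secreted by the cells themselves and acts through FGF receptors, the RAS proteins and the RAF, MEK and ERK kinases. Active ERK raises transcription of the ETV factors and of a set of its own inhibitors, the Sprouty, Spred and DUSP proteins, whose RNA is therefore commonly read as a record of pathway activity. The pathway is known in these cells for pushing them out of naive pluripotency, towards the epiblast or, in the early embryo, towards primitive endoderm.

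Depth, inferred from the deposited values, was 5.23 to 7.76 aligned gigabases per library, and libraries of one group correlated at r = 0.994 to 0.995 across genes. Bod1l averaged 49.28 ± 1.125 and 48.73 ± 2.306 TPM (SD, n = 3) in unexposed and exposed wild type, against 11.56 ± 0.4148 and 12.35 ± 0.6022 in the knockout. The summed levels of cell type marker lists differed between the groups, and each is given for unexposed wild type, exposed wild type, the unexposed knockout and the exposed knockout in that order. The 7 embryonic stem cell markers found in the tables summed to 7805 to 7816, 7357 to 7693, 7135 to 7252 and 6809 to 7127 TPM. Dppa5a, the most abundant, averaged 3806, 3932, 3259 and 3335 TPM. In the knockout, limma called Dppa5a and Pou5f1 lower in both treatments. Sox2, Nanog, Zfp42, Esrrb and Klf4 were not called between the unexposed genotypes, and all of these but Sox2 were called higher in the exposed knockout. The 7 primitive endoderm markers summed to 3.564 to 4.462, 5.141 to 7.163, 6.563 to 7.625 and 7.052 to 8.131 TPM. Within that list, limma called Dab2 higher in the knockout, unexposed and exposed (0.76 ± 0.12 and 0.41 ± 0.12, adjusted p = 0.000288 and 0.01715). Gata4 averaged 0.8702, 1.149, 1.576 and 1.687 TPM. Its mean in unexposed wild type lay below 1 TPM, so no test is given for it. Pdgfra averaged 0.9103, 1.98, 1.204 and 2.282 TPM. Sox7 had lower means in the knockout, at 0.5617, 0.5617, 0.3482 and 0.2139 TPM, and Foxa2 averaged 0.2017, 0.06417, 0.1582 and 0.08442 TPM. Gata6 averaged 0.2678, 0.9344, 0.9443 and 1.134 TPM and was not tested, and Sox17 stood at 0 to 0.3185 TPM. The 6 markers of the primed or formative epiblast, mostly Dnmt3b, summed to 141.1 to 143.7, 119.9 to 127.1, 116.1 to 117.5 and 105.2 to 107.8 TPM. With etoposide, limma called Dnmt3b and Otx2 lower in both genotypes. Cldn6 went the other way, at 8.724, 16.17, 8.542 and 13.97 TPM (limma adjusted p = 4.02e-06 in wild type and 5.53e-05 in the knockout). Sfrp2 and Pou3f1 were not called in any comparison, and Fgf5 was not tested. Mesendoderm markers summed to 17.4 to 21.75, 13.39 to 13.95, 15.67 to 19.28 and 14.99 to 15.74 TPM. Eomes was called lower in the knockout in both treatments (limma adjusted p = 0.0126 and 0.006). T was called higher in the exposed knockout, at 4.456 against 1.55 TPM (limma adjusted p = 0.0164), with exposed wild-type libraries at 0 to 2.419 TPM. Gsc was not called between the genotypes, and Mixl1 and Mesp1 were not tested. Neuroectoderm markers summed to 15.22 to 15.89, 20.89 to 23.28, 17.79 to 19.31 and 22.46 to 25.98 TPM, with Neurod1 averaging 2.782 and 11.9 TPM in unexposed and exposed wild type. Nes went the other way, lower with etoposide in wild type and in the knockout (limma adjusted p = 0.00586 and 0.0222). Sox1 was not called with etoposide, and Pax6 averaged 0.265 and 0.1105 TPM in unexposed and exposed wild type. Trophectoderm markers, mostly Tfap2c, summed to 73.64 to 78.64, 74.44 to 75.71, 65.02 to 66.25 and 59.51 to 62.24 TPM. Tfap2c was lower in the knockout in both treatments, whereas Cdx2 was higher in both (limma adjusted p = 0.0127 and 0.0141 for Cdx2). The 7 feeder fibroblast markers summed to 6.531 to 7.264, 5.575 to 7.504, 4.933 to 6.008 and 4.756 to 5.714 TPM. Most of that was Thy1, lower in the knockout in both treatments (limma adjusted p = 0.0219 and 0.0172), and Col1a1 averaged 0.8401 to 1.508 TPM, while Col3a1, Postn, Dcn and Lum were at or near 0. The part of these differences in the results on FGF-ERK genes was not tested. In bulk RNA, fewer cells of a type and less RNA per cell cannot be told apart.

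The 10 genes covered a wide range of levels, and the order was Etv5, Fgf4, Spry2, Fgfr1, Etv4, Spred1, Dusp6, Spry4, Etv1 and Dusp4. Mean TPM over the 12 libraries fell along that order from 272 for Etv5 to 0.865 for Dusp4. Fgfr1 and Etv4 were neighbours, with means of 56.2 and 50.5 TPM. Their libraries overlapped in the unexposed knockout, where Fgfr1 stood at 51.3 to 54.6 and Etv4 at 49.5 to 54.7 TPM, but not in unexposed wild type. Dusp6, Spry4 and Etv1 were also close, with means of 13.1, 10.3 and 7.79 TPM. In unexposed wild type the libraries of Spry4 (11.75 to 13.1 TPM) and Etv1 (9.53 to 13.75) overlapped. The highest library exceeded the lowest by 1.08 times for Etv5 and by 2.87 times for Etv1.

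**Figure D1:**
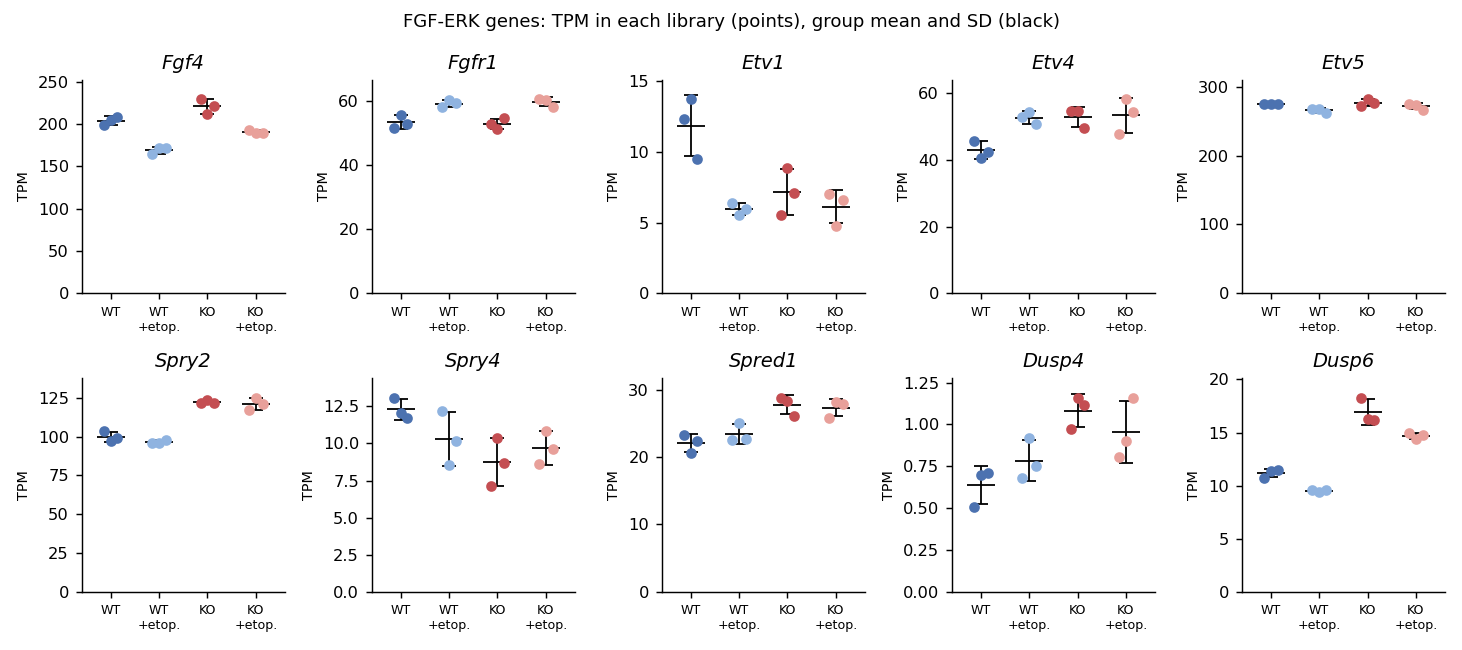
TPM of each of the 10 FGF-ERK genes in the 12 libraries. Each panel is 1 gene, each point 1 library, and the black bar and whiskers are the group mean and SD (n = 3), with all axes starting at 0. Spry2, Spred1 and Dusp6 sit higher in both knockout groups, Fgf4 sits lower in both etoposide groups, and unexposed wild type stands apart from the other groups for Etv1 (9.53 to 13.75 TPM) and Etv4 (40.7 to 45.8 TPM).

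Fgf4, the main FGF ligand of these cells, was modestly higher in the knockout and lower after etoposide. It stood at 199, 205 and 208 TPM in unexposed wild type, at 164, 171 and 171 in exposed wild type, at 229, 212 and 221 in the unexposed knockout and at 193, 189.5 and 189 in the exposed knockout. No library of one group overlapped those of another group it was compared with. The knockout exceeded wild type by 8.2% without etoposide (difference of log2(TPM + 1) 0.11 ± 0.03 SE, limma with Benjamini-Hochberg adjustment over all 14107 genes, adjusted p = 0.011). With etoposide it exceeded wild type by 12.7% (0.17 ± 0.03, limma adjusted p = 0.000952). The call without etoposide held under every alternative processing run but came close to the threshold, at limma adjusted p of 0.00344 to 0.0499. Etoposide lowered Fgf4 by 17.2% in wild type (−0.27 ± 0.03, limma adjusted p = 3.15e-05) and by 13.7% in the knockout (−0.21 ± 0.03, limma adjusted p = 0.000394). The gene lies on chromosome 7 from 144415123 to 144418982 on the plus strand (GRCm39).

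Among the 19 Fgf ligand genes, Fgf4 held 82.75% ± 0.2142 of the summed TPM in unexposed wild type (SD, n = 3). The share was 85.9% ± 0.199 in exposed wild type, 85.4% ± 0.257 in the unexposed knockout and 87.4% ± 0.437 in the exposed knockout. The share of Fgf4 was higher after etoposide although its own level was lower, and the sum of the 19 genes went from 246.6 ± 5.578 to 196.8 ± 4.735 TPM in wild type. Fgf17 went from 19.5 ± 1.93 to 11.3 ± 0.308 TPM in wild type, Fgf10 from 9.16 ± 0.203 to 5.70 ± 0.202, and Fgf3 from 8.63 ± 0.508 to 5.71 ± 0.451. These 3 ligands also fell in the knockout, by 0.46 ± 0.07, 0.63 ± 0.06 and 0.40 ± 0.07 on the log2 scale (limma adjusted p = 0.000282, 1.56e-05 and 0.00169). Fgf10 was lower in the knockout with and without etoposide (−0.37 ± 0.06 and −0.35 ± 0.06, limma adjusted p = 0.000495 and 0.000668), whereas Fgf4 was higher. Fgf17 was lower in the unexposed knockout (−0.30 ± 0.07, limma adjusted p = 0.00253) and was not called between the exposed genotypes (−0.02 ± 0.07, limma adjusted p = 0.794). Fgf3 was not called between the genotypes. Fgf18, the least abundant ligand tested, averaged 1.75 to 2.41 TPM in the 4 groups and was not called in any comparison. Of the 18 ligand genes listed beside Fgf4, 4 passed the filter. With etoposide 3 of these 4 were called lower in each genotype, beside 13.5% of all genes in wild type and 10.5% in the knockout. In the knockout 2 of the 4 were called lower unexposed and 1 exposed, and none higher, beside 21.5% and 21.7% of all genes called lower.

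Fgfr1, a receptor tyrosine kinase that binds FGF4, followed etoposide and not genotype. Its libraries held 51.5, 55.7 and 52.8 TPM in unexposed wild type and 58.0, 60.2 and 59.2 in exposed wild type. They held 52.6, 51.3 and 54.6 TPM in the unexposed knockout and 60.5, 60.4 and 58.0 in the exposed knockout. All exposed libraries lay above all unexposed ones within each genotype, and the genotypes overlapped within each treatment. Etoposide raised it by 10.8% in wild type (0.15 ± 0.04, limma adjusted p = 0.0088) and by 12.9% in the knockout (0.17 ± 0.04, limma adjusted p = 0.00479). The 95% intervals of the genotype difference, −0.09 to 0.07 unexposed and −0.07 to 0.09 exposed on the log2 scale, bound a change that the test did not call. Fgfr1 lies on chromosome 8 from 26008808 to 26067819 (plus strand).

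Of Fgfr1 to Fgfr4, Fgfr1 held 89.7% ± 0.645 of the summed TPM in unexposed wild type and 86.3% ± 0.747 after etoposide. The share of Fgfr4, another FGF receptor, went from 2.74% ± 0.14 to 8.65% ± 0.626. It stood at 1.54, 1.62 and 1.72 TPM in unexposed wild type and at 6.27, 5.53 and 5.98 after etoposide (1.40 ± 0.10, limma adjusted p = 5.43e-07). In the knockout it went from 2.85, 2.12 and 2.06 to 5.74, 4.92 and 4.91 TPM (0.89 ± 0.10, limma adjusted p = 5.12e-05). Fgfr2, the receptor associated with primitive endoderm and named here after its values were seen, fell from 4.18 ± 0.411 TPM in unexposed wild type to 2.77 ± 0.0901 in the unexposed knockout (−0.45 ± 0.08, limma adjusted p = 0.000731).

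**Figure D2:**
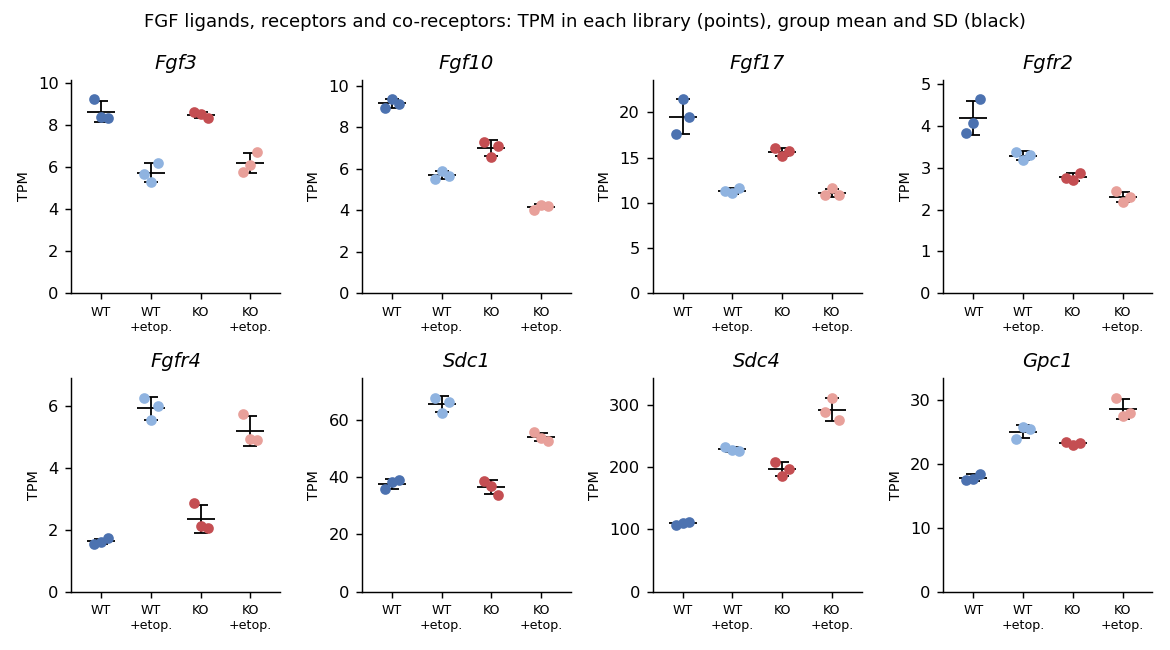
TPM of 3 FGF ligands, 2 FGF receptors and 3 heparan sulfate co-receptors in the 12 libraries. Points are libraries, black bars and whiskers are group means and SD (n = 3), and each axis starts at 0. The ligands Fgf3, Fgf10 and Fgf17 are lower in both etoposide groups, while Fgfr4, Sdc1, Sdc4 and Gpc1 are higher in them, with Sdc4 going from 110 to 229 TPM in wild type.

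The 3 ETV factors, ETS-domain proteins whose genes are induced by ERK, did not move together. Etv5 was the most abundant of the 10 genes and the steadiest. It stood at 275, 275 and 274 TPM in unexposed wild type, 268, 267 and 262 in exposed wild type, 271, 282 and 276 in the unexposed knockout and 274, 274 and 266 in the exposed knockout. None of its comparisons passed the test, and the widest change was −0.05 ± 0.02 with etoposide in wild type (limma adjusted p = 0.0998). That change passed with median-of-ratios scaling (−0.08, limma adjusted p = 0.0154), and all 3 exposed libraries lay below the unexposed ones. Etv5 made up 81.9% to 83.4% of the summed TPM of the 3 factors in each group mean, and the sum itself stayed between 324 and 337 TPM. It lies on chromosome 16 from 22200063 to 22258320 (minus strand).

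Etv4 and Etv1 each set unexposed wild type apart from the other 3 groups, in opposite directions. Etv4 stood at 45.8, 40.7 and 42.5 TPM in unexposed wild type, at 52.8, 54.5 and 50.7 in exposed wild type, at 54.5, 54.7 and 49.5 in the unexposed knockout and at 47.8, 58.2 and 54.4 in the exposed knockout. It was 23.1% higher in the unexposed knockout than in unexposed wild type (0.29 ± 0.07, limma adjusted p = 0.00365) and 22.5% higher after etoposide in wild type (0.29 ± 0.07, limma adjusted p = 0.00613). These comparisons share the unexposed wild-type libraries and are not independent of each other. Under etoposide the genotypes differed by 0.02 ± 0.07 (95% interval −0.13 to 0.17), and etoposide changed the knockout by 0.01 ± 0.07, neither of which was called. Etv4 lies on chromosome 11 from 101660573 to 101677963 (minus strand).

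Etv1 stood at 12.35, 13.75 and 9.53 TPM in unexposed wild type, against 6.38, 5.54 and 5.97 in exposed wild type, 5.58, 8.87 and 7.12 in the unexposed knockout and 7.01, 4.80 and 6.59 in the exposed knockout. Every unexposed wild-type library lay above every other library. The knockout held 39.5% less than wild type without etoposide (−0.66 ± 0.16, limma adjusted p = 0.0055), and exposed wild type held 49.8% less than unexposed (−0.87 ± 0.16, limma adjusted p = 0.0013). Both comparisons again share the unexposed wild-type libraries. The exposed groups overlapped (0.02 ± 0.16, limma adjusted p = 0.928), with an interval from −0.34 to 0.38 that leaves moderate changes undetectable at this level. Etv1 lies on chromosome 12 from 38829655 to 38920484 (plus strand).

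The Sprouty genes, which encode inhibitors of RAS and RAF activation downstream of receptors, also differed from each other. Spry2 was higher in all knockout libraries. It held 103, 97.1 and 99.0 TPM in unexposed wild type and 95.7, 96.0 and 98.1 in exposed wild type, against 121, 123 and 122 in the unexposed knockout and 117, 125 and 121 in the exposed knockout. The excess was 22.3% without etoposide (0.29 ± 0.03, limma adjusted p = 1.13e-05) and 25.3% with it (0.32 ± 0.03, limma adjusted p = 5.80e-06). Etoposide left no called change in either genotype, with differences of −0.05 ± 0.03 and −0.01 ± 0.03. Spry2 lies on chromosome 14 from 106129381 to 106134559 (minus strand).

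Spry4 went the other way in unexposed cells. Its libraries held 13.1, 12.05 and 11.75 TPM in unexposed wild type, 12.2, 8.58 and 10.15 in exposed wild type, 7.16, 10.4 and 8.68 in the unexposed knockout and 8.59, 10.8 and 9.62 in the exposed knockout. The unexposed knockout lay 29% below wild type without overlap (−0.46 ± 0.13, limma adjusted p = 0.0123). The call was lost without replicate 1 of the unexposed knockout (−0.34, limma adjusted p = 0.0544) and when genes of low level were kept in (adjusted p = 0.0774). No other comparison of Spry4 passed, and the exposed groups differed by −0.07 ± 0.13. Spry4 lies on chromosome 18 from 38719300 to 38734400 (minus strand).

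Spred1, a membrane inhibitor of RAS signalling that works with neurofibromin, resembled Spry2. It held 23.2, 20.7 and 22.45 TPM in unexposed wild type and 22.6, 25.1 and 22.6 in exposed wild type, against 28.8, 28.3 and 26.15 in the unexposed knockout and 25.9, 28.2 and 27.9 in the exposed knockout. The knockout was higher by 25.6% without etoposide (0.32 ± 0.06, limma adjusted p = 0.000986) and by 16.7% with it (0.21 ± 0.06, limma adjusted p = 0.0125). The latter missed the threshold when genes of low level were kept in, which raises the number of genes tested (adjusted p = 0.0513). Spred1 lies on chromosome 2 from 116951576 to 117012760 (plus strand).

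Dusp6, a cytoplasmic phosphatase that removes the activating phosphates from ERK, showed the largest genotype difference on the log2(TPM + 1) scale among the tested genes that were higher in the knockout. Its libraries held 10.8, 11.3 and 11.45 TPM in unexposed wild type, 9.55, 9.39 and 9.62 in exposed wild type, 18.3, 16.3 and 16.1 in the unexposed knockout and 14.9, 14.4 and 14.8 in the exposed knockout. The 4 groups did not overlap anywhere. The knockout exceeded wild type by 51.3% without etoposide (0.56 ± 0.06, limma adjusted p = 6.32e-06) and by 54.4% with it (0.58 ± 0.06, limma adjusted p = 5.85e-06). Etoposide lowered Dusp6 by 14.9% in wild type (−0.21 ± 0.06, limma adjusted p = 0.0106). In the knockout it lowered the mean by 13.1% (−0.19 ± 0.06, limma adjusted p = 0.0257), a call that was lost when any one of the exposed knockout libraries was left out (adjusted p = 0.0524, 0.0815 and 0.056 without replicates 1, 2 and 3) or without replicate 1 of the unexposed knockout (0.103). It was also lost when the knockout groups were fitted alone (adjusted p = 0.0687). Dusp6 lies on chromosome 10 from 99098676 to 99103351 (plus strand).

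Dusp4, a nuclear phosphatase of ERK, was barely detected. It held 0.509, 0.697 and 0.712 TPM in unexposed wild type and 0.683, 0.919 and 0.749 in exposed wild type, against 0.970, 1.16 and 1.115 in the unexposed knockout and 0.804, 0.901 and 1.16 in the exposed knockout. The unexposed groups did not overlap, the knockout mean was 69.2% higher, and in the fit without the filter on low values the difference was 0.35 ± 0.10 (limma adjusted p = 0.0447 over 41079 genes). Under etoposide the groups overlapped and no call was made (adjusted p = 0.589). Dusp4 lies on chromosome 8 from 35274448 to 35289106 (plus strand).

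**Figure D3:**
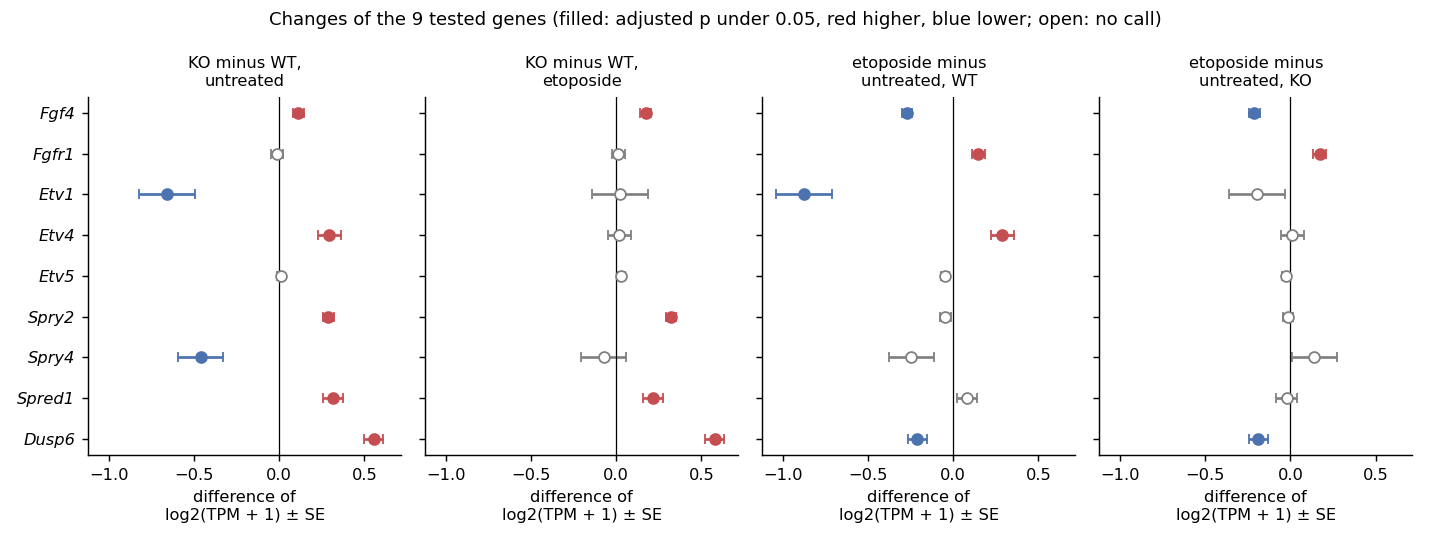
Differences of log2(TPM + 1) ± SE for the 9 tested FGF-ERK genes in the 4 comparisons between groups, from the limma fit to all 12 libraries. Filled points passed an adjusted p of 0.05 (red higher, blue lower) and open points did not. Fgf4, Spry2, Spred1 and Dusp6 are higher in the knockout in both treatments, whereas Etv1, Etv4 and Spry4 are called between the genotypes in unexposed cells and not in exposed cells. Etv1 and Etv4 are also called with etoposide in wild type.

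Of the 10 genes, Dusp4 was not tested. Counted together, 5 of the 9 tested genes were higher and 2 lower in the unexposed knockout, with a median change of 0.11 against 0.04 over all genes. Across all genes tested, 49.6% were called in that comparison, 28.1% higher and 21.5% lower. By the libraries alone, 6 of the 10 genes lay wholly above wild type and 2 wholly below, against 57.4% of all genes without overlap, 32.8% above and 24.7% below. Under etoposide 4 were higher and none lower, with a median of 0.03 against 0.02 over all genes, where 44.1% of all genes were called, 22.5% higher and 21.7% lower. Libraries did not overlap for 4 of the 10, all of them above, against 54.3% of all genes, 28.1% above and 26.1% below. At an unadjusted p under 0.05 the count under etoposide was also 4. With etoposide in wild type, 2 were higher and 3 lower, against 34.3% of all genes called, 20.8% higher and 13.5% lower. Libraries lay apart for 2 of the 10 upwards and 4 downwards, against 46.6% of all genes, 27.0% above and 19.6% below. With etoposide in the knockout, 1 was higher and 2 lower, against 25.0% of all genes called, 14.5% higher and 10.5% lower. Libraries lay apart for 1 upwards and 2 downwards, against 39.5% of all genes, 21.4% above and 18.1% below. Fgfr1 was called higher with etoposide in both genotypes, as were 12.8% of all genes, and Fgf4 and Dusp6 lower in both, as were 7.8%. The genes Fgf4, Spry2, Spred1 and Dusp6 were called higher in the knockout in both treatments, as were 18.1% of all genes. With so large a share of all genes called, and only 9 genes counted, these counts describe the chosen genes and set nothing apart about the pathway.

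None of the 9 genes passed the test of the difference between the etoposide changes of the genotypes (limma, 2 at an unadjusted p under 0.05, and none under any of the alternatives run), where 1.23% of all genes were called, 0.0709% with a higher change in the knockout and 1.16% with a lower one. The pair at an unadjusted p under 0.05 was Etv1 and Etv4. For Etv1 the etoposide change was higher in the knockout by 0.68 ± 0.23 (95% interval 0.17 to 1.19, limma adjusted p = 0.257, range over the alternatives 0.152 to 0.771). For Etv4 it was lower in the knockout by 0.28, with a 95% interval of −0.49 to −0.06 (limma adjusted p = 0.27, range over the alternatives 0.168 to 0.779). Spry4 gave 0.39 ± 0.19 (limma adjusted p = 0.472). For Fgf4, Spry2 and Dusp6 the differences were 0.06 ± 0.04, 0.03 ± 0.04 and 0.02 ± 0.08, with 95% intervals of −0.04 to 0.16, −0.06 to 0.13 and −0.15 to 0.19.

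Promoters are shown for the 4 genes that were called higher in the knockout in both treatments. With etoposide these genes differed, since Fgf4 and Dusp6 were called lower and Spry2 and Spred1 were not called. RefSeq promoter windows (GRCm38.p6, a different build from that of the expression tables) were matched by symbol for 6 of the 10 genes, namely Fgf4, Etv1, Etv5, Spry2, Dusp6 and Spred1. Each sequence below is the 250 bases before the annotated gene start, 5′ to 3′ on the gene's strand, in lower case. Capitals mark matches, on either strand, to any of 6 motifs: the ETS core CCGGAA, the AP-1 site TGANTCA, the CRE TGACGTCA, the GC box GGGCGG, the TATA box TATAAA and the octamer ATGCAAAT. None of these overlap in the windows shown. The windows are chr7:144861136-144861385 (plus strand) for Fgf4, chr14:105896820-105897069 (minus strand) for Spry2, chr10:99262981-99263230 (plus strand) for Dusp6 and chr2:117120821-117121070 (plus strand) for Spred1.
Fgf4: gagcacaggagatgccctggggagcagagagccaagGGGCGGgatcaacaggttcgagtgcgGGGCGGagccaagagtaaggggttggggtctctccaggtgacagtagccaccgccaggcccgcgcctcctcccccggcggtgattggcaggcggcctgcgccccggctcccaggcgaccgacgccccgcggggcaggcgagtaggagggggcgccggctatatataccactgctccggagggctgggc
Spry2: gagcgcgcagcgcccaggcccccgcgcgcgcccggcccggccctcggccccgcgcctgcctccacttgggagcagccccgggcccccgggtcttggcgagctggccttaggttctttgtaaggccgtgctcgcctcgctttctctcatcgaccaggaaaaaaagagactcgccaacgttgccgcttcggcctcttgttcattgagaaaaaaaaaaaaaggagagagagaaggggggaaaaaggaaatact
Dusp6: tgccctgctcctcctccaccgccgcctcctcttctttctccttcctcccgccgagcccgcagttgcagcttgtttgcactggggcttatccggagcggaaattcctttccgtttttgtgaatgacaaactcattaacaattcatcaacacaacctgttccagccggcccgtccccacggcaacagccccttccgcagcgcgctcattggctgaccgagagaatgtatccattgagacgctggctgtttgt
Spred1: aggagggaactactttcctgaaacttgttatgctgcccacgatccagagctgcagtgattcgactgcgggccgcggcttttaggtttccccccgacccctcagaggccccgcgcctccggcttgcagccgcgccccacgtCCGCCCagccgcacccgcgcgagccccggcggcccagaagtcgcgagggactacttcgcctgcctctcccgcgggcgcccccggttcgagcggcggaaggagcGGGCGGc

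Only the GC box, a binding motif of SP-family factors, was matched in these 4 windows, 2 times in Fgf4 and 2 times in Spred1. Spry2 and Dusp6 held no exact match to any of the 6 motifs. Near matches were not sought, so an unmarked window may still hold a variant of a motif. Among 32851 RefSeq windows of the same length, 32.7% held a GC box, 12% the ETS core, 12.4% the TATA box, 6.75% the AP-1 site, 1.55% the CRE and 1.6% the octamer. The windows were 71.2% G or C in Fgf4, 62.4% in Spry2, 56.4% in Dusp6 and 70.8% in Spred1, against a median of 52.4% over all windows. They held 21, 23, 16 and 31 CG dinucleotides, against a median of 6.

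The other genes of the pathway were taken from 6 lists that hold 107 genes, all found in the tables, of which 83 passed the filter. In the unexposed knockout 31 (37.4%) were called higher and 14 (16.9%) lower, beside 28.1% and 21.5% of all genes, with a median change of 0.09 against 0.04. The same numbers, 31 and 14, were called under etoposide, beside 22.5% and 21.7% of all genes, with a median of 0.05 against 0.02. With etoposide in wild type 22 (26.5%) were called higher and 18 (21.7%) lower, beside 20.8% and 13.5% of all genes. In the knockout 16 (19.3%) were called each way, beside 14.5% and 10.5%. In quantile-normalised values the wild-type split was 19 and 24, so the direction of the split turned with the scaling, as it did for all genes (60.7% of calls higher, 43.9% with quantile normalization).

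Of 15 tested receptors and co-receptors, 7 were called higher and 3 lower in the unexposed knockout (66.7% called, beside 49.6% of all genes) and 5 each way under etoposide (66.7%, beside 44.1%). Sdc4, a heparan sulfate proteoglycan that presents FGFs to their receptors, stood at 108, 110 and 113 TPM in unexposed wild type and 208, 185 and 196 in the unexposed knockout (0.83 ± 0.05, limma adjusted p = 5.69e-08). Under etoposide it stood at 233, 227 and 226 in wild type and 289, 312 and 275 in the knockout (0.35 ± 0.05, limma adjusted p = 8.33e-05). Gpc1, a glypican, was also higher in the knockout in both treatments (0.36 ± 0.05 and 0.19 ± 0.05, limma adjusted p = 6.38e-05 and 0.00787). Sdc1, another syndecan, was lower in the knockout under etoposide (−0.27 ± 0.05, limma adjusted p = 0.00122), and its difference between the treatments was not called (limma adjusted p = 0.227).

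Of 18 adaptors and RAS regulators, 5 were called higher and 3 lower in each comparison of genotypes, which is 44.4% called beside 49.6% of all genes unexposed and 44.1% under etoposide. Rras, a RAS-related GTPase, fell from 24.9 ± 0.236 to 17.6 ± 0.971 TPM in unexposed cells (−0.48 ± 0.06, limma adjusted p = 3.82e-05) and was lower under etoposide too (−0.40 ± 0.06, limma adjusted p = 0.000226). Frs3, an adaptor that docks on FGF receptors, rose in the unexposed knockout (0.36 ± 0.06, limma adjusted p = 0.00032), as did Rasa3, a RAS GTPase-activating protein (0.47 ± 0.06, limma adjusted p = 7.46e-05). Neither was called between the exposed genotypes (0.06 ± 0.06 and 0.12 ± 0.06, limma adjusted p = 0.437 and 0.153). Their differences between the treatments were not called either (limma adjusted p = 0.148 and 0.112). Mras, a further RAS-related GTPase, fell with etoposide from 43.3 ± 0.504 to 31.25 ± 1.911 TPM in wild type and from 46.2 ± 1.71 to 36.9 ± 0.261 in the knockout (limma adjusted p = 5.64e-06 and 0.00022). Frs3 and Rasa3 also rose with etoposide in wild type, by 0.62 ± 0.06 and 0.91 ± 0.06 (limma adjusted p = 5.79e-06 and 2.95e-07).

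Of 16 RAF, MEK and ERK kinases and their scaffolds, 9 (56.25%) were called higher and 2 (12.5%) lower in the unexposed knockout, beside 28.1% and 21.5% of all genes. Under etoposide 8 of the 16 were called higher and 2 lower, beside 22.5% and 21.7%. Pebp1, which encodes a RAF kinase inhibitor, was higher in the knockout under etoposide (0.13 ± 0.02, limma adjusted p = 0.000999), and Rps6ka1, a kinase activated by ERK, rose with etoposide in both genotypes (0.12 ± 0.02 and 0.18 ± 0.02, limma adjusted p = 0.00191 and 0.000203). The kinase gene Braf held 20.6, 20.8 and 21.2 TPM in unexposed wild type and 26.5, 25.6 and 27.1 in the unexposed knockout (0.32 ± 0.04, limma adjusted p = 4.23e-05), and its excess under etoposide was 0.23 ± 0.04 (limma adjusted p = 0.000647). Araf, a related kinase, was called higher in the unexposed comparison (0.40 ± 0.08, limma adjusted p = 0.00154, against 0.05 ± 0.08 under etoposide), and its difference between the treatments was not called (limma adjusted p = 0.234).

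Of 14 other feedback inhibitors, 2 were called each way in the unexposed knockout (28.6% called, beside 49.6% of all genes). Under etoposide 6 were called higher and 2 lower (57.1%, beside 44.1%). Errfi1, which encodes an inhibitor of EGF receptor kinases, was higher in both (0.42 ± 0.06 and 0.39 ± 0.06, limma adjusted p = 0.000155 and 0.000306). Dusp14, a further phosphatase gene, differed by 0.15 ± 0.07 and 0.28 ± 0.07 (limma adjusted p = 0.0707 and 0.00495). With etoposide none of the 14 was called higher in either genotype, beside 20.8% and 14.5% of all genes. In wild type 3 were called lower and 11 not called, and in the knockout 2 and 12, beside 13.5% and 10.5% of all genes called lower. Flrt3, whose protein binds FGF receptors, and Lrig1, an inhibitor of receptor tyrosine kinases, fell in both genotypes. The change of Lrig1 was −0.32 ± 0.05 in wild type and −0.28 ± 0.05 in the knockout (limma adjusted p = 0.000677 and 0.00256), and that of Flrt3 was −0.51 ± 0.07 and −0.43 ± 0.07 (limma adjusted p = 7.01e-05 and 0.000442).

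Of 16 other transcription factors and targets downstream of ERK, 8 were called higher and 2 lower in the unexposed knockout (62.5% called, beside 49.6% of all genes), and 7 and 1 of the 16 under etoposide, where 44.1% of all genes were called. Jun, part of the AP-1 factor, went from 2.68 ± 0.431 to 6.26 ± 0.472 TPM in unexposed cells (0.99 ± 0.09, limma adjusted p = 3.57e-06). Phlda1, a target commonly used to score ERK output and named here after its values were seen, went from 5.01 ± 0.447 to 10.4 ± 1.95 TPM (0.92 ± 0.10, limma adjusted p = 1.85e-05) and differed by 0.86 ± 0.10 under etoposide (limma adjusted p = 3.89e-05). Epha2, an ephrin receptor gene, was higher in the unexposed knockout (0.17 ± 0.03, limma adjusted p = 0.00125). It was not called between the exposed genotypes (−0.03 ± 0.03, limma adjusted p = 0.517). Ccnd1, the gene of cyclin D1, was slightly lower in the unexposed knockout (−0.12 ± 0.02, limma adjusted p = 0.00173). It was not called between the exposed genotypes either (−0.005 ± 0.02, limma adjusted p = 0.884). With etoposide in wild type, Ccnd1 fell by 0.30 ± 0.02 (limma adjusted p = 1.37e-06). Fosl1, another AP-1 gene, held 0.0409, 0.0963 and 0.172 TPM in unexposed wild type and 3.74, 2.90 and 3.30 in exposed wild type. It passed the filter only through the groups where it was high, so no test is given for it. The counts of this list, and those of the other FGF-ERK genes together, still include Fosl1 as higher in every comparison between groups. Egr1, the classical immediate early gene of ERK, stayed below the filter at 0.3725 to 0.8966 TPM and is named here after its values were seen.

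**Figure D4:**
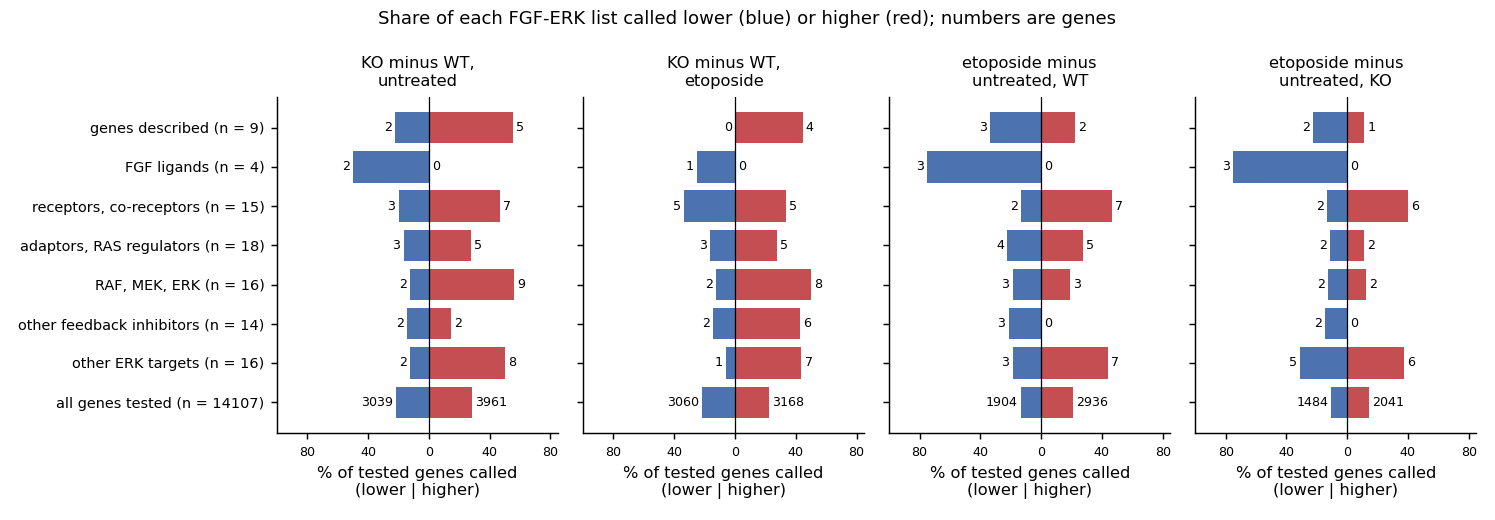
Share of tested genes called lower (blue, to the left) or higher (red, to the right) in 4 comparisons, for the 9 tested genes, the 6 lists of other FGF-ERK genes and all 14107 genes tested. Numbers beside the bars are genes. FGF ligands are called lower in 3 of 4 cases with etoposide in each genotype, beside 13.5% of all genes in wild type and 10.5% in the knockout. RAF, MEK and ERK genes are called higher in 9 of 16 cases in the unexposed knockout, beside 28.1% of all genes.

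**Figure D5:**
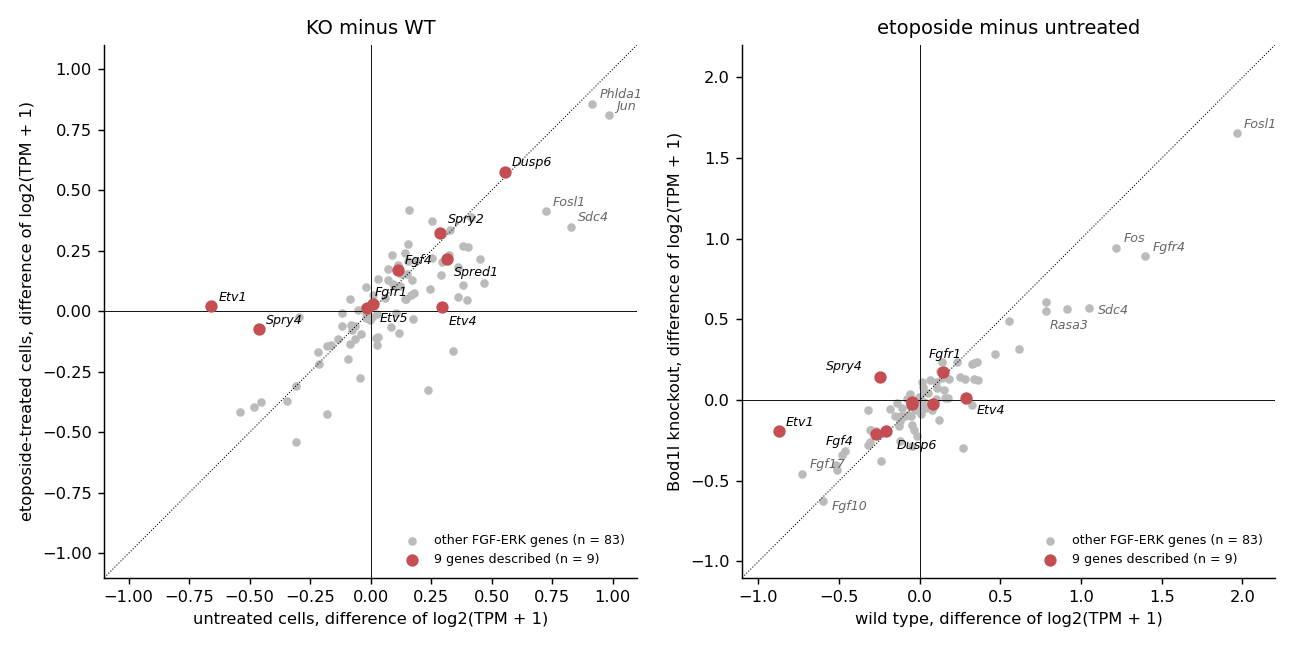
Differences of log2(TPM + 1) for the 9 tested genes (red) and 83 other FGF-ERK genes (grey). The left panel sets knockout minus wild type in unexposed cells against the same in exposed cells, the right panel etoposide minus unexposed in wild type against the same in the knockout, with a dotted line of equal change. Dusp6, Spry2 and Spred1 lie near that line on the left (0.56 and 0.58 for Dusp6), while Etv1, Etv4 and Spry4 lie near 0 on the vertical axis alone.

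Likeness of pattern was measured as Pearson's r of log2(TPM + 1) over the 12 libraries, with 9982 genes of mean TPM of at least 5 compared. The values describe these libraries, which share 4 groups, and carry no test. Spry2 and Dusp6 were alike at r = 0.93, Spry2 and Spred1 at 0.89, and Dusp6 and Spred1 at 0.79. Many genes outside the pathway were closer. Crebzf, Zscan4d and Yipf6 were nearest to Spry2 (0.986, 0.985 and 0.985), of which Zscan4d belongs to a multicopy family whose reads are shared. B4galt6, Ep400 and Accsl were nearest to Dusp6 (0.987, 0.984 and 0.983). Hs2st1, a heparan sulfate sulfotransferase, was nearest to Spred1 (0.95), followed by Zfp334 and Srek1. For Fgf4 the nearest were Cand1, Ngfr and Ppp3r1 (0.977, 0.974 and 0.973). For Etv1 they were Ets2, Eif5a and Eif4h (0.928, 0.923 and 0.921), and for Etv4 Col5a1, Eci2 and Sec24a (0.913, 0.899 and 0.896). Klhdc7a and Palm were nearest to Fgfr1 (both 0.943), Mybl2 to Etv5 (0.909) and Uqcrfs1 to Spry4 (0.871). Etv1 and Etv4 had opposite patterns across the libraries, with r = −0.83.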

How the data were processed

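The authors deposited 1 gene table per library with TPM, FPKM and coverage per gene. Per the labels' protocols, RNA was poly(A)-selected in repeated rounds and made into strand-specific libraries with rRNA removal. The submitters' processing notes name Trim Galore 0.6.6, cutadapt 3.4, HISAT2 2.2.1, StringTie 2.2.1 and GRCm39 (mm39). Depth was inferred as the most common value, in each library, of the deposited coverage signal divided by FPKM. Only 29.6% to 31% of the genes used for it in a library held that value. TPM is not a count, so no count model was used, and TPM differences are shares of a fixed total.

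Genes averaging 1 TPM or more were kept, and log2(TPM + 1) was fitted with limma 3.58.1 (R 4.3.3, 4 group means, trended prior spread, 8 residual degrees of freedom, 3.91 prior). P-values were adjusted by Benjamini-Hochberg over all 14107 genes at a threshold of 0.05, in 5 comparisons. The script was tested on simulated data. The members and all gene lists were chosen with earlier results of these data known. All 10 members were named, then up to 4 genes of each list by lowest adjusted p, and up to 3 genes of most similar pattern per member. The stem cell marker Tdgf1 was not analysed here. Alternatives were a pseudocount of 0.1, no filter, a mean TPM of at least 5, FPKM, median-of-ratios and quantile scaling, a replicate block, the compared groups alone, a robust prior and leaving out each library.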

Additional observations from a re-analysis of the deposited data

Results flagged for a closer look

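Sdc4, the heparan sulfate co-receptor, was the one gene of the 9 tested members and 83 other FGF-ERK genes whose etoposide change differed between genotypes by its own test. Etoposide raised it by 1.05 ± 0.05 in wild type (110.2 ± 2.526 to 228.6 ± 3.804 TPM) and by 0.57 ± 0.05 in the knockout (196.5 ± 11.28 to 292.1 ± 18.53 TPM). The difference was −0.48 ± 0.07 on the log2 scale (limma, Benjamini-Hochberg adjusted p = 0.00353), and its adjusted p over the alternatives ran from 0.0023 to 0.056.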

How the results depend on the processing

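No value changed direction past the threshold under any alternative run. For single genes, 3552 values kept their side of the threshold, 34 lost a call and 24 gained one. Of the 312 counts of called genes, 300 stayed within 1.5 times the first count, and those that did not all belong to the test of the difference between genotypes in the etoposide change. There, 174 of all genes were called, against 85 without the filter on low values, 102 with quantile normalization and 93 to 131 when single libraries were left out. Of the 83 other FGF-ERK genes 1 was called, against 0 without the filter and 1 to 2 when single libraries were left out. The cause was not tested. Among the genes described, the split in the untreated knockout was 6 higher and 1 lower without the filter, and 5 and 1 without replicate 1 of that group. The replicate numbers did not pair the libraries, since same-numbered libraries deviated together at r = −0.045 to 0.045, and with a replicate block 7, 4, 5, 3 and 0 of the tested genes were called, the same counts as without it. For all genes that block gave 122 calls in the test of the difference. Dusp4 lay below the filter on low values, so its level limits what can be tested.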
